A study of Homo sapiens with 2 samples.

Results

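Interferon-stimulated genes were described in the human natural killer cell line NK92 with and without the antibody PPMX-T003. The members are 51 genes that interferons are known to induce, taken by symbol from a list and not by a threshold on their values, and all 51 were found among the 46427 genes of the deposited table. NK92 is an established cell line, and PPMX-T003 binds transferrin receptor 1 (TfR1), which carries iron-loaded transferrin into cells. Cells kept in medium with 2% human serum were pre-incubated for 18 h and divided between 2 dishes, of which 1 was exposed to PPMX-T003 at 10 µg/mL over 6 h and the other was left without antibody. Poly(A) RNA from each dish gave 1 stranded sequencing library, with 46766416 counts for the control and 43178462 for PPMX-T003. The deposited table calls the columns 0 h and 6 h, while the study's methods describe an equal culture time, so the 0 h column was taken as the control and a difference in harvest time cannot be told apart from the exposure. With 1 library per condition, none of the differences has a replicate check.

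The NK label was compared with marker genes. All 11 NK cell markers had counts, led by NKG7, and their summed level was 6639 TPM (the deposited level per transcript length) in the control and 7235 TPM with PPMX-T003. Most of that sum came from NKG7 (3215 and 3445 TPM) and GZMB (1850 and 2149 TPM). KLRD1 (8 and 7 TPM), CD7 (12 and 14 TPM) and TYROBP (17 and 19 TPM) were low. FCGR3A, the CD16 receptor gene that NK92 is known to lack, had 16 and 15 counts. Among 7 T cell markers, CD3D, CD3G, CD5 and CD8A were at 0 in both libraries, whereas TRBC1 (330 and 385 TPM) and TRAC (75 and 69 TPM) were detected. All 4 erythroid and all 4 fibroblast or epithelial markers were at 0, and among B cell markers CD79A had counts (14 and 12) while MS4A1 and CD22 had none. The 6 myeloid markers summed to 415 and 405 TPM, nearly all from S100A9 (393 and 388 TPM), with CD14 at 0 and 7 counts and LYZ at 2 and 0. Of 4 markers of plasmacytoid dendritic cells, which are known as strong producers of type I interferon, CLEC4C and LILRA4 were at 0 and the list summed to 10 TPM in both libraries.

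Type I interferons bind a receptor made of IFNAR1 and IFNAR2, whose kinases JAK1 and TYK2 phosphorylate STAT2. It joins IRF9 in the complex ISGF3, which enters the nucleus and binds the interferon-stimulated response element (ISRE) of its target genes, while the response to interferon gamma uses the GAS element. The induced proteins detect viral nucleic acid, stop translation, degrade RNA, attack membranes or feed back on the pathway, and many of them are also present at a basal level in cells that have met no virus.

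All 51 members had at least 20 counts summed over both libraries, the minimum for testing, and the lowest member total was 307. The difference of a gene is given as the log2 ratio of its library-scaled counts (CPM), PPMX-T003 over control, with a prior count of 2, so that a negative value is a lower level with PPMX-T003. Its 95% interval, an exact Clopper-Pearson interval on the division of the reads, covers counting error only and compares the libraries, not the conditions. Most members were lower with PPMX-T003. The ratio was below 0 in 40 of 51 members, against 50.3% of the 13665 genes tested, and 14 members were lower by at least 1.2-fold (log2 0.26), against 12.4% of the genes tested. No member was higher by 1.2-fold, against 12.2% of the genes tested, and none passed 2-fold in either direction, which 1.38% of genes did downward and 1.27% upward. Their median log2 ratio was -0.15, beside -0.0020 over all genes tested. In bulk RNA, fewer cells of a type and less RNA per cell cannot be told apart.

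Counting error was small for these genes. The interval lay below 0 for 32 members, against 23.9% of the genes tested, above 0 for 10, against 21.8%, and held 0 for 9. Since low counts widen the spread of ratios, the members were also set beside the 10419 genes with at least 200 counts, a minimum that all 51 pass. Of those genes, 51.1% had ratios below 0, 7.1% were lower and 5.71% higher by 1.2-fold, and 0.0768% were lower and 0.125% higher by 2-fold. Their intervals lay below 0 for 28.6% and above 0 for 25.7%, and the central 95% had ratios between -0.39 and 0.36. Below that range lay 4 members, IFIT3, IFI44L, SAMD9 and EIF2AK2, and above it none. The share of members below 0 was therefore high, but their differences were modest, from -0.48 for IFIT3 to 0.20 for IRF1. Ratios also followed the GC content of the transcripts, so that ratios after removal of a fit on GC content and length (after the fit) stand beside many of those below, as do some from the deposited TPM. With the TPM, 15 members were lower by 1.2-fold, among them OAS2 and DTX3L and not MX2. No share of all genes from the TPM stands beside this count. The median of the members was then -0.19, beside 0 for all genes.

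**Figure D1:**
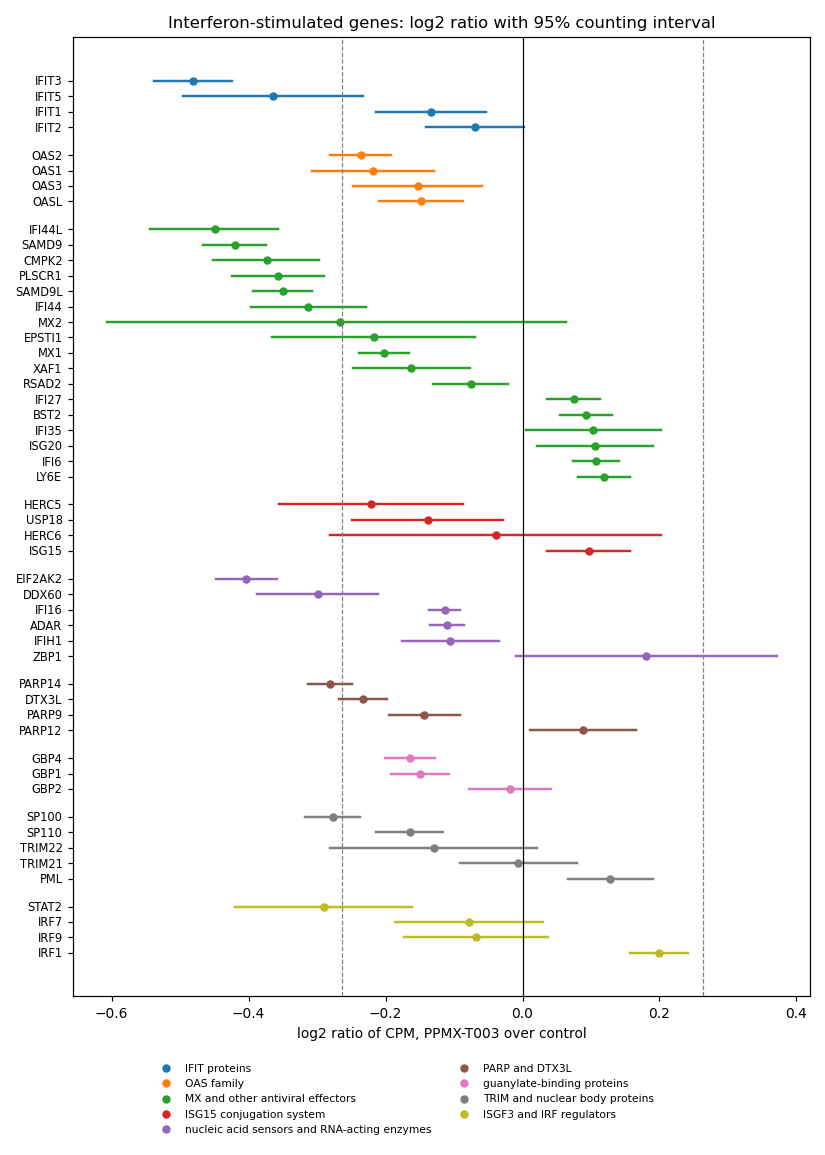
The log2 ratio (PPMX-T003 over control, horizontal axis) of each of the 51 members is drawn with its 95% counting interval, grouped and coloured by role, and dashed lines mark a 1.2-fold difference. There are 14 points at or beyond the lower dashed line, from IFIT3 at -0.48 upward, and none beyond the upper one.

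The members were abundant in both libraries. Their median level was 60 TPM in the control and 54 TPM with PPMX-T003, beside 16 TPM for all genes tested in either library, and it ranged from 2 to 849 and from 2 to 880 TPM. In the control, 18 members reached 100 TPM and 10 stayed under 20 TPM. Summed, the members took 6622 TPM (0.663% of the table) in the control and 6211 TPM (0.622%) with PPMX-T003. The 4 highest levels in the control were those of IFI6 (849 TPM), IFI27 (842 TPM), IFI16 (564 TPM) and BST2 (549 TPM), and with PPMX-T003 the order of these differed only in that BST2 (564 TPM) stood above IFI16 (502 TPM). At the low end, MX2 was at 2 TPM and HERC6 at 4 TPM in both.

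**Figure D2:**
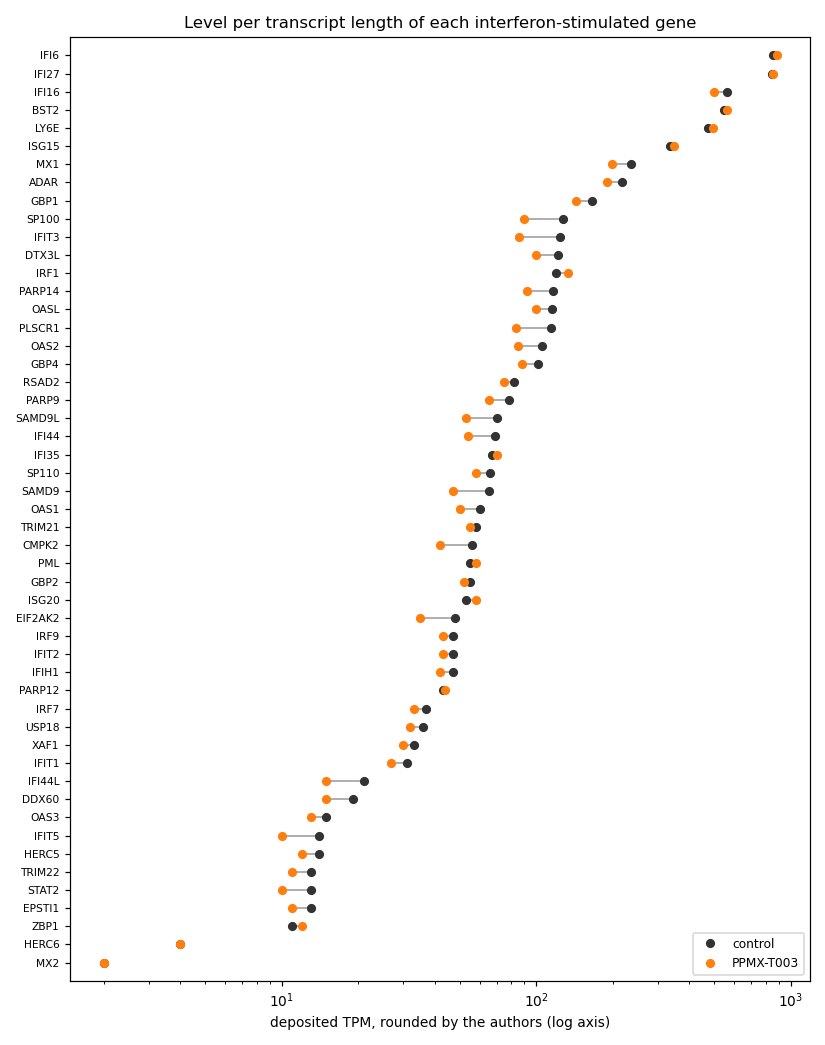
Deposited TPM of each member (horizontal log axis) in the control (black) and PPMX-T003 (orange) libraries, ordered by the control level. The level spans 2 to 849 TPM in the control, and the separation between the points of a gene is small beside that span.

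The promoters of the members were read for the motifs of the pathway, since many interferon-stimulated genes are known to carry an ISRE near their start. RefSeq promoter windows (250 bases before to 50 after the start, build GRCh38.p14) were matched for 40 of 51 members. The ISRE core was searched as GAAANNGAAA and, on the other strand, TTTCNNTTTC, and the GAS motif as TTCNNNGAA, which reads alike on both strands. An ISRE core was found in 25 of the 40 member windows (62.5%), beside 3.65% of all 27305 promoters and 3.38% of the 10157 promoters of genes tested. The GAS letters were found in 10 (25%), beside 7.88% of all promoters, 6.55% of those of genes tested, 26.2% of 42 interferon pathway genes and 19.4% of 31 other interferon-inducible genes, and 6 members held both. The members' share of GAS letters was thus close to that of the pathway genes. A match describes letters and does not show that a factor binds there. Whole windows are printed for the 3 members whose intervals lay farthest below 0 and the 2 farthest above it among the windows open to printing, each where its gene is described, and windows of 22 bases around 1 match are printed for other named members. Capitals mark the ISRE core, or in IRF1 the GAS motif.

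IFIT proteins bind foreign RNA at its 5′ end. Their 4 genes had a median log2 ratio of -0.25, with intervals below 0 for 3 of 4 and 2 lower by 1.2-fold, and summed counts of 13409 in the control and 10140 with PPMX-T003. After the fit the median was -0.12 and 1, IFIT3, was lower by 1.2-fold. IFIT3 (NCBI Gene ID 3437), the partner that stabilises IFIT1 on RNA, had 6193 counts in the control and 4090 in the PPMX-T003 library. This was the lowest ratio of any member, -0.48 (interval -0.54 to -0.42). IFIT5, which binds RNA with a 5′ triphosphate, had 1134 and 812 counts and a ratio of -0.36 (-0.50 to -0.23), or -0.21 after the fit. IFIT1, which recognises caps that lack methylation, stood closer to the control, at 2760 and 2319 counts and -0.13 (-0.21 to -0.054), or -0.026 after the fit. The interval of IFIT2 held 0 (-0.069, -0.14 to 0.0029), and its ratio was 0.039 after the fit. These genes lie side by side on chromosome 10, yet their ratios spanned 0.41. The IFIT3 window (chr10:89327747-89328046, forward strand) holds 2 ISRE cores, and windows of IFIT1 (chr10:89392514-89392535, forward strand) and IFIT5 (chr10:89414558-89414579, forward strand) show the core that begins at -103 and -4 from their starts. Capitals at the left edge of both short windows are the end of another match.
IFIT3: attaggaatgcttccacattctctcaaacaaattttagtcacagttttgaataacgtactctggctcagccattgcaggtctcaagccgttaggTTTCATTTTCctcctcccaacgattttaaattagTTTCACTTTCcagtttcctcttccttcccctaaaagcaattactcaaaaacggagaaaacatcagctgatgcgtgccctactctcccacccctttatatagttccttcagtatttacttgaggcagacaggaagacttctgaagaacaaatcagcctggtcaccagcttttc
IFIT1: TTCcccTTTCGGTTTCcctagg
IFIT5: CttaagTTTCAGTTTCtgagcg

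The OAS family makes oligoadenylates on contact with viral RNA, which lead to RNA degradation. All 4 genes were lower, none by 1.2-fold from the counts, with a median of -0.19 and the narrowest range of any role, -0.24 to -0.15. OAS2 had 9160 counts in the control and 7170 in the PPMX-T003 library (-0.24, -0.28 to -0.19) and passed 1.2-fold with the TPM (-0.30), and OAS1 had 2332 and 1848 (-0.22, -0.31 to -0.13). OASL, which lacks the synthase activity, had 4709 and 3919 counts (-0.15, -0.21 to -0.086). Reads of all 4 thus made up a smaller share of the PPMX-T003 library.

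The 17 MX proteins and other antiviral effectors were divided. Their median was -0.20, 11 of 17 were below 0 and 7 were lower by 1.2-fold, while the intervals of 6 lay above 0. The median was -0.13 with the TPM. After the fit 4 of 17 were lower by 1.2-fold, and SAMD9 (-0.23), SAMD9L (-0.26) and IFI44 (-0.25) no longer were. SAMD9 and SAMD9L, adjacent genes on chromosome 7 whose products restrict poxviruses, had similar ratios. SAMD9 (NCBI Gene ID 54809) had 9175 counts in the control and 6321 in the PPMX-T003 library, a ratio of -0.42 (-0.47 to -0.37), and SAMD9L had 10050 and 7267 counts, a ratio of -0.35 (-0.39 to -0.31). Both were lower with PPMX-T003 at depths where counting error is slight. IFI44L had 2301 and 1553 counts (-0.45, -0.54 to -0.36), and its neighbour IFI44 2703 and 2006 (-0.31). Also lower by 1.2-fold, and named after their values were seen, were the mitochondrial nucleotide kinase CMPK2 (3250 and 2312 counts, -0.37), the phospholipid scramblase PLSCR1 (4323 and 3112, -0.36) and the GTPase MX2 (174 and 133, -0.27), the last with an interval that held 0 (-0.61 to 0.064). The SAMD9 window (chr7:93117930-93118229, reverse strand) holds 1 ISRE core, as does the short IFI44L window (chr1:78620369-78620390, forward strand), where it begins at -73.
SAMD9: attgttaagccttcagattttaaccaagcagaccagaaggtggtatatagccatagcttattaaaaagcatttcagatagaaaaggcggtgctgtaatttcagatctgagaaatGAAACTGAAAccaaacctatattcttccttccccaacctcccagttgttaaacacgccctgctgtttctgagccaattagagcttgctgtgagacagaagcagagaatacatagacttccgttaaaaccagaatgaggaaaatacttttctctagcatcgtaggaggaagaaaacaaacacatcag
IFI44L: agtgagGAAAAAGAAAgttagt

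MX1, a GTPase that traps viral nucleocapsids, was the most deeply counted of the lower effectors, with 13780 counts in the control and 11039 in the PPMX-T003 library (-0.20, -0.24 to -0.17). Its difference, like those of EPSTI1 (-0.22), XAF1 (-0.16) and RSAD2 (-0.075), stayed within 1.2-fold although the intervals lay below 0. RSAD2, which encodes viperin, starts beside CMPK2 on the other strand of chromosome 2, and the pair differed by 0.30 in ratio. The 6 effectors with intervals above 0 were IFI27, BST2, IFI35, ISG20, IFI6 and LY6E, and their ratios ran from 0.074 to 0.12. After the fit LY6E (-0.022), IFI27 (-0.020) and ISG20 (-0.017) were below 0, and the other 3 were between 0.011 and 0.027. When the fit took the longest transcript of each gene, a choice made after seeing the data, all 6 were below 0, from -0.093 for IFI27 to -0.016 for ISG20, BST2 at -0.054 and IFI35 at -0.038 among them. The 6 include the tetherin gene BST2, which holds budding virions at the cell surface, and IFI6, a small membrane protein gene. IFI6 (NCBI Gene ID 2537) had 14521 counts in the control and 14420 in the PPMX-T003 library (0.11, 0.074 to 0.14), a slightly larger share of the smaller library, or 0.027 after the fit and -0.046 with the longest transcripts in it. Its window (chr1:27672143-27672442, reverse strand) holds 3 ISRE cores, more than those of IFIT3, SAMD9 or EIF2AK2.
IFI6: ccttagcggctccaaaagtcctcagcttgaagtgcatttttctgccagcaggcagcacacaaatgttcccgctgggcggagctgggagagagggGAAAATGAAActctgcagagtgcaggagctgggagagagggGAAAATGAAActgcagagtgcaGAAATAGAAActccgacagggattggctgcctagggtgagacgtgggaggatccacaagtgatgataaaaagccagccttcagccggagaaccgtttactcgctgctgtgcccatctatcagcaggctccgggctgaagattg

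The ISG15 system attaches the ubiquitin-like protein ISG15 to other proteins. Its 4 genes had a median of -0.089, 3 of 4 below 0 and none past 1.2-fold. ISG15 itself had 4478 counts in the control and 4414 in the PPMX-T003 library, a ratio of 0.096 (0.036 to 0.16), which turned to -0.063 after the fit and was 0.042 with the TPM. The ligase gene HERC5 had 1023 and 809 counts (-0.22, -0.36 to -0.087) and was at -0.11 after the fit, so that both were then below 0. USP18, whose product removes ISG15 and restrains the receptor, had 1465 and 1227 (-0.14, -0.25 to -0.028). The count of USP18 is uncertain because its near-identical copy USP41 may share reads with it. HERC6 had 302 and 271 counts, and no difference was detectable at this depth (-0.039, -0.28 to 0.20, 0.033 after the fit). In the ISG15 window (chr1:1013384-1013405, forward strand) a pair of cores overlaps, the one nearer the start beginning at -107, and the HERC5 window (chr4:88457039-88457060, forward strand) shows the core at -74.
ISG15: GAAAGGGAAACCGAAActgaag
HERC5: attatgTTTCGTTTTCcactgg

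Nucleic acid sensors and RNA-acting enzymes had a median of -0.11, with 5 of 6 below 0 and 2 lower by 1.2-fold. The median was -0.18 with the TPM. After the fit it was -0.028 and 1, EIF2AK2, was lower by 1.2-fold. EIF2AK2 (NCBI Gene ID 5610) encodes PKR, the kinase that halts translation on sensing double-stranded RNA, and had 9781 counts in the control and 6818 in the PPMX-T003 library. Its ratio of -0.40 (-0.45 to -0.36) was the lowest of the group. DDX60, a helicase-like antiviral factor, had 2439 and 1827 counts (-0.30, -0.39 to -0.21), or -0.24 after the fit and -0.15 with the longest transcripts in it. The DNA sensor IFI16 was the most abundant of the group at 564 and 502 TPM, with 33121 and 28223 counts (-0.11, -0.14 to -0.091), or -0.010 after the fit. The editing enzyme ADAR (-0.11) and the RNA sensor IFIH1, also called MDA5 (-0.11), lay close to it, and after the fit ADAR was at -0.046 and IFIH1 at -0.011. ZBP1, a sensor of left-handed nucleic acid, had 446 and 466 counts, and its positive ratio had an interval that held 0 (0.18, -0.0099 to 0.37). The EIF2AK2 window (chr2:37156931-37157230, reverse strand) holds its ISRE core across the start, and the DDX60 window (chr4:168318790-168318811, reverse strand) shows a core at -53.
EIF2AK2: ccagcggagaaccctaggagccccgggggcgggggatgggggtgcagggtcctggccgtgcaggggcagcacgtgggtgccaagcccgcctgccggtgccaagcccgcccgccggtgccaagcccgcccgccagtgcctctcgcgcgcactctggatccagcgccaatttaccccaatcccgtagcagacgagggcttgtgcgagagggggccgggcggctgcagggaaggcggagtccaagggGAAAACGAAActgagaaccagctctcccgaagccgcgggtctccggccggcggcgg
DDX60: agaaagGAAACCGAAActcccg

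PARP9, DTX3L and PARP14, which add or direct ADP-ribose and ubiquitin marks, lie together on chromosome 3 and were all lower. PARP14 had 18697 counts in the control and 14185 in the PPMX-T003 library and was lower by 1.2-fold (-0.28, -0.31 to -0.25), but not after the fit (-0.20). DTX3L had 14612 and 11466 counts (-0.23, -0.27 to -0.20) and passed 1.2-fold with the TPM (-0.28). Its partner PARP9 had 6542 and 5460 (-0.14, -0.20 to -0.092), or -0.057 after the fit and -0.26 with the TPM. PARP12, on chromosome 7, was the exception of this role, at 0.088 (0.028 after the fit), and the median of the 4 was -0.19, or -0.11 after the fit. The printed windows of PARP14 (chr3:122680804-122680825, forward strand) and DTX3L (chr3:122564326-122564347, forward strand) show cores at -29 and -6.
PARP14: ggaaacGAAAGCGAAAgagtca
DTX3L: ggaagcGAAACTGAAActttgc

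Guanylate-binding proteins are GTPases that coat the membranes of intracellular pathogens. None of the 3 was lower by 1.2-fold, and their median was -0.15, or -0.031 after the fit. GBP4 had 13062 counts in the control and 10747 in the PPMX-T003 library (-0.16, -0.20 to -0.13), and GBP1 9952 and 8270 (-0.15, -0.19 to -0.11). After the fit GBP4 was at -0.031 and GBP1 at -0.056. No difference was detectable for GBP2 (4666 and 4247 counts, -0.018, -0.079 to 0.042, 0.026 after the fit, -0.018 with the longest transcripts in it, -0.079 with the TPM), whose exons overlap GBP7 on the same strand. An ISRE core begins at -127 in GBP1 (chr1:89065320-89065341, reverse strand) and at -4 in GBP4 (chr1:89198931-89198952, reverse strand).
GBP1: aagtacTTTCAGTTTCatatta
GBP4: atgtccTTTCAATTTCggttct

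TRIM and nuclear body proteins had a median of -0.13, or -0.073 after the fit, with 4 of 5 below 0. SP100, a scaffold of PML nuclear bodies, had 11430 counts in the control and 8694 in the PPMX-T003 library and was the 1 of 5 lower by 1.2-fold (-0.28, -0.32 to -0.24), but not after the fit (-0.21), while with the TPM it was at -0.49. PML, the organiser of the same bodies, had 4188 and 4220 counts and an interval above 0 (0.13, 0.066 to 0.19), or 0.026 after the fit and 0.075 with the TPM. The 2 had GC contents of 43.6% for SP100 and 63.2% for PML. SP110 had 7417 and 6100 (-0.16, -0.21 to -0.12). The intervals of TRIM21, a cytosolic antibody receptor, and TRIM22 held 0, and TRIM22 went from -0.13 to -0.073 after the fit.

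The regulators of the other members had intervals below 0 for 1, above 0 for 1 and holding 0 for 2. STAT2, the ISGF3 subunit that carries its activation domain, had 1145 counts in the control and 863 in the PPMX-T003 library and was lower by 1.2-fold (-0.29, -0.42 to -0.16). IRF9, the DNA-binding subunit, had 1583 and 1392 counts (-0.068, -0.17 to 0.037), and IRF7, which amplifies interferon production, 1491 and 1302 (-0.078, -0.19 to 0.030), both with intervals that held 0. Across the 4 regulators the median was -0.073, and -0.18 after the fit, with IRF9 then at -0.15 and IRF7 at -0.22. With the TPM it was -0.14, with IRF9 at -0.13 and IRF7 at -0.16. IRF1 (NCBI Gene ID 3659), a transcription factor that interferon gamma induces, had 8716 counts in the control and 9227 in the PPMX-T003 library, the highest ratio of any member (0.20, 0.16 to 0.24). After the fit it was at 0.12, below ZBP1 (0.14), but with the longest transcripts in the fit it was at 0.17, above ZBP1 (0.12). Its exons overlap 1716 bases of C5orf56 on the other strand, and whether the reads were counted by strand is not stated. The IRF1 window (chr5:132490724-132491023, reverse strand) holds no ISRE core and 1 GAS motif.
IRF1: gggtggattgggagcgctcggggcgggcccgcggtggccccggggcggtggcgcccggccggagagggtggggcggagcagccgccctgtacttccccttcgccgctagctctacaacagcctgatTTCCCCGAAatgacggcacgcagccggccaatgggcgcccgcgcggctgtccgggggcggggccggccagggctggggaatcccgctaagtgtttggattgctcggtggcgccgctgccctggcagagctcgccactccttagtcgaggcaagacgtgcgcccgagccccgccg

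Members with and without an ISRE core in the window were then compared. Of the 25 with a core, 19 were below 0 and 9 were lower by 1.2-fold, with a median of -0.20 and ratios from -0.48 to 0.11. Of the 15 without, 13 were below 0 and 4 lower, with a median of -0.14 and ratios from -0.37 to 0.20. Of all genes tested, 50.3% were below 0 and 12.4% lower by 1.2-fold, and of those with at least 200 counts 51.1% and 7.1%. Median GC content of the transcripts also differed, 44.2% with a core and 50.5% without, and after a fit on GC content and length was removed the medians were -0.15 and -0.14. Among the 31 other interferon-inducible genes matched, 12 (38.7%) held a core, and among the 42 pathway genes 8 (19.0%).

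Members that lie near each other in the genome all had ratios below 0. Within 250 kb of another member, 10 clusters held 25 members, and all 25 were below 0, whereas 15 of the 26 members outside clusters were. Of all genes tested, 50.3% were below 0, and of those under 45% GC 2836 of 3827 were. The comparison of clusters was not among the planned results. The medians were -0.22 inside and -0.073 outside, and the median GC content was 44.2% inside and 54.7% outside. After removal of the fit on GC content and length, 22 of 25 inside and 18 of 26 outside were below 0, against 49.1% of genes, with medians of -0.20 and -0.034. Sizes still varied inside a cluster. The IFIT cluster on chromosome 10 spanned 0.41 and the CMPK2 and RSAD2 pair 0.30, while SAMD9 and SAMD9L differed by 0.070, MX1 and MX2 by 0.064 and the 3 OAS genes on chromosome 12 by 0.083. Members of a cluster are paralogs or neighbours and are not independent observations.

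The ratios followed the GC content of the transcripts. Over the 51 members, Spearman's rho between GC content and log2 ratio was 0.65 (Pearson's r 0.68), beside 0.39 over 11962 tested genes and 0.49 over the 9949 with at least 200 counts. These are descriptions across genes, which share the same pair of libraries and are not independent replicates. All 19 members under 45% GC were below 0, as were 2836 of the 3827 genes of that class, and 9 (47.4%) were lower by 1.2-fold, beside 13.6% of those genes and 10.7% of those with at least 200 counts. Their median was -0.22, beside -0.093 for the class. In the class from 45% to 55%, 16 of 18 members and 2189 of 4356 genes were below 0, and 4 members (22.2%) were lower, beside 10.6% and 6.70%, with medians of -0.16 and -0.0012. Above 55%, 5 of 14 members and 1084 of 3779 genes were below 0, and 1 member (7.14%), CMPK2, was lower, beside 7.86% and 2.62%, with medians of 0.095 and 0.091. Members under 55% GC therefore had lower ratios than the genes of their class at the median, and those above 55% did not. The 10 members with intervals above 0 had GC contents from 54.5% (PARP12) to 64.1% (ISG15).

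When a robust linear fit of the ratio on GC content and log length, made on the genes with at least 200 counts, was removed, the median of the members was -0.14 beside 0.0031 for all genes, and 40 members were below 0, against 49.1% of genes. The number lower by 1.2-fold was 7, against 9.27% of genes, and none was higher, against 8.34%. These 7 were IFIT3 (-0.41), MX2 (-0.33), CMPK2 (-0.41), PLSCR1 (-0.33), IFI44L (-0.36), EIF2AK2 (-0.32) and STAT2 (-0.28). With the longest transcripts in the fit, EIF2AK2 (-0.23) was no longer lower by 1.2-fold and IFI44 (-0.27) was. No shares of all genes are given for that setting. With the median length in the fit, 48.9% of genes with at least 200 counts were below 0, 4.91% lower and 4.01% higher by 1.2-fold. SAMD9, with the lowest GC content of the members (36.0%), went to -0.23, and ISG15, with 64.1%, to -0.063. Sensors and guanylate-binding proteins came close to 0 at the median (-0.028 and -0.031), while the OAS genes stayed at -0.20 and the effectors at -0.18.

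**Figure D3:**
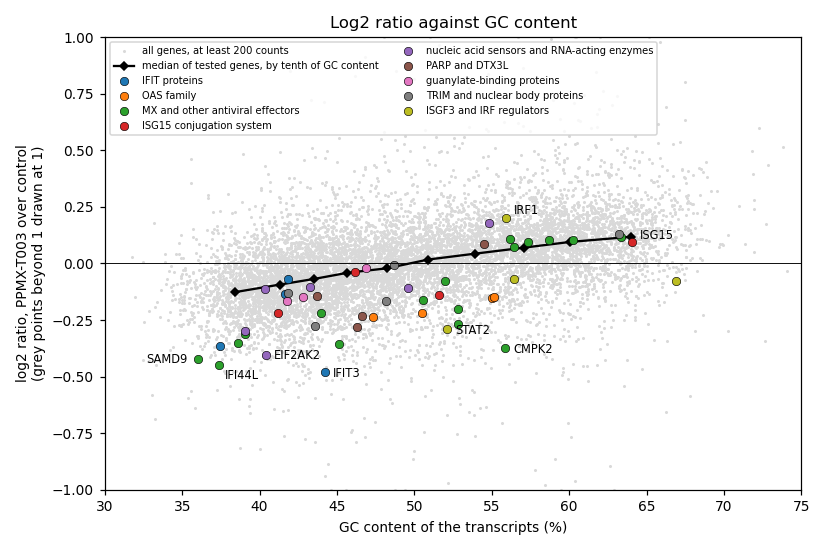
Log2 ratio (vertical axis, PPMX-T003 over control) against GC content of the transcripts (horizontal axis, percent) for genes with at least 200 counts (grey) and the members coloured by role, with a black line through the medians of tested genes in 10 classes of GC content. Members under 55% GC mostly lie below the line, IFIT3 (-0.48) among the farthest, while above 55% CMPK2 (-0.37) lies far below it and IRF1 (0.20) above it.

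Exons of 18 members overlap those of another gene, 5 of them on the same strand (GBP2, IFIT2, IRF9, SP100 and TRIM22), where reads may be divided between both. The 33 members without overlap had the same median, -0.15. Of them 11 (33.3%) were lower by 1.2-fold, against 12.4% of the genes tested and 7.1% of those with at least 200 counts. After the fit 5 (15.2%) were, against 9.27% and 4.91%. Of the members lower by 1.2-fold, CMPK2 shares 14 bases with RSAD2, EIF2AK2 shares 35 with GPATCH11 and 401 with a non-coding gene, and SP100 shares 544 with HMGB1P3. Among other named members, IRF9 shares 1838 bases with a gene on its own strand, PARP9 and DTX3L share 217 with each other on opposite strands, and XAF1 shares 2535 and SP110 1262 with genes on the other strand, so that their counts are uncertain.

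The genes upstream of the members were also read, as 53 pathway genes from ligands to negative regulators. Of these, 27 had enough counts, with a median of -0.086 (-0.041 after the fit). Ratios were below 0 for 18 of the 27, against 50.3% of the genes tested. Intervals lay below 0 for 10 (37.0%) and above 0 for 4 (14.8%), against 23.9% and 21.8% of the genes tested. Of those with at least 200 counts, 28.6% and 25.7% had such intervals. By 1.2-fold, 2 were lower (7.41%) and 1 higher (3.70%), against 12.4% and 12.2% of the genes tested. The shares were 7.10% and 5.71% of those with at least 200 counts, so these 1.2-fold counts are near or under the background. After the fit 1, IFNL1 (-0.44), was lower and 1, SOCS1 (0.52), higher. Among the 22 ligand genes, all the listed IFNA genes, IFNE, IFNK, IFNL2, IFNL3 and IFNL4 were at 0 in both libraries and IFNW1 had 0 and 4 counts. IFNB1 had 13 and 10 counts and IFNL1 20 and 14, with intervals too wide to read a direction. IFNG, the interferon that NK cells are known to secrete, was expressed, with 1534 counts in the control and 1317 in the PPMX-T003 library (-0.10, -0.21 to 0.0044, 0.015 after the fit). Type I interferon transcripts were thus at or near 0 in both libraries, while IFNG was present in both.

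Of the 6 receptor genes, 4 had enough counts, while IFNLR1 had 0 and 3 and IFNGR2 was listed at 0 in both libraries. IFNAR1 had 3211 and 2696 counts (-0.13, -0.21 to -0.061), IFNAR2 3225 and 2839 (-0.067, -0.14 to 0.0066) and IFNGR1, the ligand-binding chain for interferon gamma, 1261 and 1016 (-0.19, -0.32 to -0.074). From the counts all of these stayed within 1.2-fold. With the TPM IFNGR1 (-0.28) passed it, with IFNAR1 at -0.23 and IFNAR2 at -0.12, and after the fit the 3 were at -0.091, -0.048 and -0.041 in the same order. The kinase gene JAK1 was slightly lower (12179 and 10371 counts, -0.11, -0.15 to -0.077, -0.029 after the fit), and for TYK2 no difference was detectable (0.050, -0.0060 to 0.11, -0.081 after the fit, -0.024 with the TPM).

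Among sensing and induction genes, RIGI (listed as DDX58), the cytosolic sensor of RNA with a 5′ triphosphate, was lower by 1.2-fold, with 1417 and 1070 counts (-0.29, -0.40 to -0.17), but not after the fit (-0.16). Its adaptor MAVS had 6856 and 5481 (-0.21, -0.26 to -0.15) and passed 1.2-fold with the TPM (-0.27). TICAM1, the adaptor of TLR3, had 1276 and 1411 (0.26, 0.15 to 0.37), just inside the threshold. With upper-quartile scaling it passed it (0.27), which makes 2 pathway genes higher, while after the fit it was at 0.16 and with the TPM at 0.17. TLR3, named after its value was seen, also lay just inside, on the lower side (-0.2625, with a threshold of 0.2630 in size, and -0.16 after the fit). Median-of-ratios scaling shifted the median of all genes by -0.0097, and the ratio of TLR3 under other scalings is not given. Whether TLR3 would pass 1.2-fold there is therefore not shown. SOCS1, an inhibitor of JAK kinases, was the 1 pathway gene higher by 1.2-fold, at 78 and 116 counts (0.68, 0.26 to 1.12), a low count and a transcript of 67.3% GC. The inhibitors PIAS1 (-0.21, -0.11 after the fit, -0.12 with the TPM) and PTPN11 (-0.18) were lower within 1.2-fold. IFNL1, at counts too low for its interval to exclude 0, was the other of the 2 lower (-0.35, -1.49 to 0.66), and its rounded TPM was 1 in both libraries.

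A further list held 44 interferon-inducible genes that are not members. Of these, 43 had enough counts, 22 were below 0, and their median was -0.0054, beside -0.15 for the members and -0.0020 for all genes tested. Their intervals lay below 0 for 18 (41.9%) and above 0 for 10 (23.3%), against 23.9% and 21.8% of the genes tested (28.6% and 25.7% of those with at least 200 counts), and with the deposited TPM their median was -0.072, beside -0.19 for the members and 0 for all genes. By 1.2-fold, 4 were lower (9.30%) and 3 higher (6.98%), against 12.4% and 12.2% of the genes tested and 7.10% and 5.71% of those with at least 200 counts. CD38, an ectoenzyme that consumes NAD, had 11010 counts in the control and 7619 in the PPMX-T003 library (-0.41, -0.46 to -0.37). HELZ2, a helicase-like coactivator, had 6728 and 4898 counts (-0.34, -0.39 to -0.29) and transcripts of 66.3% GC. IFITM3, which blocks viral entry, was higher, with 137 and 213 (0.75, 0.44 to 1.07), but IFITM genes are near-identical copies and their counts are uncertain. Named after their values were seen, APOL6 (-0.31) and, at the threshold, TRIM25 (-0.26) were also lower, and CXCL10 (0.51) and LGALS9 (0.34) also higher, both of the latter with intervals that held 0. After the fit the list had a median of -0.022, and the genes past 1.2-fold were partly others. APOL6 (-0.14), TRIM25 (-0.25) and LGALS9 (0.24) no longer passed it, RTP4 went from 0.23 to 0.28 and did, and the 2 lower were CD38 (-0.34) and HELZ2 (-0.42) and the other 2 higher IFITM3 (0.62) and CXCL10 (0.61).

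**Figure D4:**
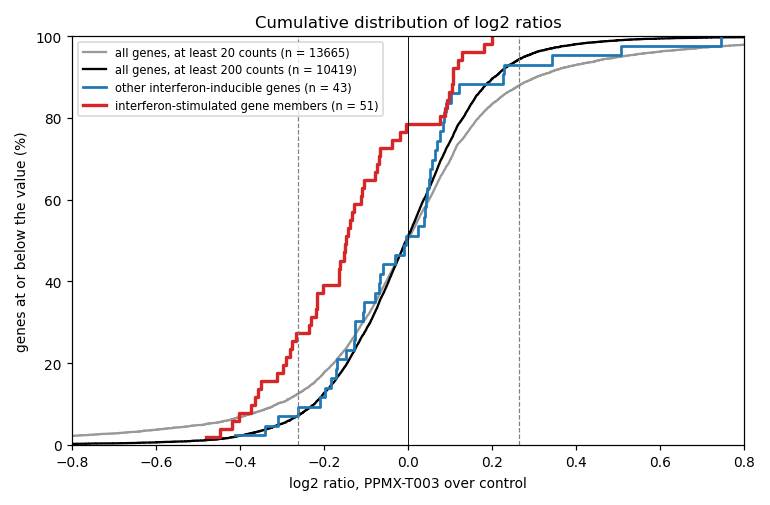
Cumulative share of genes (vertical axis, percent) at or below each log2 ratio (horizontal axis, PPMX-T003 over control) for the 51 members (red), 43 other interferon-inducible genes (blue) and all genes with at least 20 (grey) or 200 counts (black). The red curve lies to the left, with a median of -0.15, and the blue one has a median of -0.0054.

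**Figure D5:**
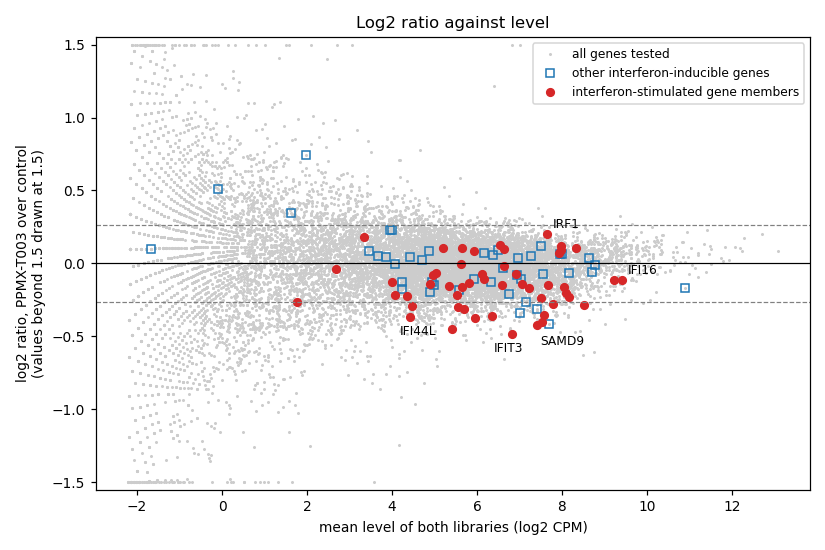
Log2 ratio (vertical axis) against the mean level of both libraries (horizontal axis, log2 CPM) for all genes tested (grey), other interferon-inducible genes (blue squares) and the members (red), with dashed lines at 1.2-fold. The spread of all genes narrows with level, and IFIT3, IFI44L and SAMD9 lie near its lower edge.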

How the data were processed

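RNA of 2 dishes of NK92 cells was sequenced as stranded poly(A) libraries, 1 per condition. The submitters' processing notes name Trimmomatic 0.38, HISAT2 2.2.0, StringTie 2.1.3b, edgeR 3.17 and the build hg38. The authors deposited read counts per gene, from which commas between digits were removed, and TPM and FPKM rounded to whole numbers. The rounded TPM deposited by the authors was recorded as a score and used for levels between genes, and FPKM was not used. The design assumed plain counts, but because of the commas the unit was recorded as other; the ratios were computed as designed.

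Genes with at least 20 counts summed were tested (13665 of 46427). CPM was scaled by the trimmed mean of M-values (factors 1.00 and 1.00) in Python 3.11.15 (pandas 2.3.3, numpy 2.4.6). Intervals came from scipy 1.17.1, the robust fit from statsmodels 0.14.6 and figures from matplotlib 3.10.9. No test between conditions is possible with 1 library each, so folds of 1.2 and 2 and counting intervals are given. The calculations were tested on simulated data. GC content and length were medians over transcripts in GENCODE release 29, known for 87.5% of the genes tested and for all 51 members. Gene coordinates and promoters are from RefSeq (GRCh38.p14), and no promoter on chromosome 8 was printed.

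Values were given in full for up to 3 members of each role, those whose interval bound nearest 0 was largest in size, for each ISGF3 and IRF regulator, and for pathway and other inducible genes by the same bound together with IFNAR1 and IFNAR2. Other genes were named where they complete a count or a comparison, after their values were seen. Results of some genes that this rule covers are not reported here. The members and lists were chosen with earlier results of these data known. Alternatives were scaling by upper quartile, library size or median of ratios, a prior count of 0.5 or 5, minimums of 1 and 200 counts, the deposited TPM with a pseudocount of 1, thresholds of 1.1 and 1.5, the fit on GC content and length and, chosen after seeing the data, the fit with longest transcripts, members without exon overlap and classes of GC content.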

Additional observations from a re-analysis of the deposited data

How the results depend on the processing

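With other scalings, prior counts and minimum counts, the counts of members past 1.2-fold and the medians of the members, roles and lists stayed within the limits set for a change, in 14 of 14 results under each of those 7 settings. The deposited TPM gave role medians of -0.13 for MX and other effectors, -0.18 for sensors, -0.27 for PARP and DTX3L and -0.20 for guanylate-binding proteins. With the fit on GC content and length removed, 7 members were lower by 1.2-fold, and the medians were -0.12 for IFIT proteins, -0.028 for sensors, -0.11 for PARP and DTX3L, -0.031 for guanylate-binding proteins and -0.18 for ISGF3 and IRF regulators. ISG15 then changed sign, from 0.096 to -0.063. TYK2 (-0.081), IFNG (0.015) and GBP2 (0.026), whose intervals held 0, also crossed 0 with the fit, as did TYK2 (-0.024) with the TPM. Of 46 named genes, 28 moved beyond their counting interval with the fit and 18 with the TPM. With the longest transcripts in the fit, a setting chosen after seeing the data, 7 members were lower. At 1.1-fold, 28 members were lower and 2 higher, and at 1.5-fold none (0) was lower. These counts follow from the threshold, and no share of all genes at 1.1-fold or 1.5-fold stands beside them. The cause of the other shifts was not tested. No paired analysis was possible because there is 1 library for each condition, nor could a replicate be left out. Depth limits MX2, HERC6 and ZBP1 most, and the rounding of TPM limits members of a few TPM.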

Other observations

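IFNGR2, which encodes the signalling chain of the interferon gamma receptor, was listed at 0 counts in both libraries. Its neighbours on chromosome 21 were not at 0. IFNAR2 had 3225 counts in the control and 2839 with PPMX-T003, IL10RB 1731 and 1641, IFNAR1 3211 and 2696, TMEM50B 1833 and 1729, and GART 11753 and 10022. The annotated spans of IFNGR2 (chr21:33402882-33437516) and TMEM50B (chr21:33432486-33479974) overlap on GRCh38.p14. The other chain, IFNGR1, had 1261 and 1016 counts. IFNGR2 is therefore given only as listed at 0, and no level is read from it.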
